A study of Mus musculus with 15 samples.

Results

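Ear RNA from *Socs3* cKO mice at 10 weeks of age was compared with that from *Socs3* cKO mice at 2 weeks, to follow how the transcriptome of the mutant skin changes as the disease progresses and how far single mice differ at each age. The samples were all 8 whose labels give the *Socs3* cKO genotype, out of 15 in the series: 4 at 2 weeks and 4 at 10 weeks. In these C57BL/6 mice *Socs3* was deleted with a keratin 5-specific conditional knockout, so that the deletion was driven in basal keratinocytes and their descendants, while RNA was taken from whole ear specimens that also hold cells without the deletion. The other 7 samples were wild type C57BL/6 ears, 4 at 2 weeks and 3 at 10 weeks, and are used here only to show where the change with age differed between genotypes. None of the labels gives a treatment, and they number the replicates without naming animals, so p-values measure the spread between these samples. Each value is an FPKM, a read count scaled to gene length and to the mapped reads of the library, and the fold changes below are differences of mean log2(FPKM + 0.1), which understate the change of genes near 0.

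SOCS3 is a feedback inhibitor of cytokine receptors that signal through gp130. Binding of IL-6 or a related cytokine activates JAK kinases and STAT3, STAT3 switches on *Socs3*, and the SOCS3 protein then binds the receptor complex and shuts JAK activity down. Ear skin holds keratinocytes, hair follicles, fibroblasts, cartilage, vessels, immune cells and strips of skeletal muscle. In RNA of such a mixture, fewer cells of a type and less RNA per cell cannot be told apart.

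The libraries were checked before they were compared. FPKM summed to between 480380 and 671904 per *Socs3* cKO mouse, and from the smallest values the worth of 1 read differed by at most 1.24-fold between the 8 libraries, while their absolute depth is unknown. Pearson's r across the 13179 tested genes was 0.846 to 0.961 between mice at 2 weeks and 0.929 to 0.966 at 10 weeks. Replicate 1 at 2 weeks stood apart, with r of 0.793 to 0.890 to the other mice and a Spearman correlation of expression with GC content of -0.30, against -0.02 to 0.03 in the other 7. By *Xist* and Y-linked genes, replicates 1 and 2 were male and replicates 3 and 4 female at both ages, so sex was balanced between the ages of *Socs3* cKO. Keratinocyte markers were high in every mouse (the summed FPKM of 14 markers was 8222 to 14834 at 2 weeks and 10248 to 15034 at 10 weeks). The numbers that the labels give to libraries form a separate block for each of the 4 groups, so that neither age nor genotype can be told apart from the order of the libraries. The filter kept the 13179 of 21110 genes that reached an FPKM of 1 in at least 3 of the 8 mice. A gene could pass it through the mice of 1 age alone, and its entry then already favours a higher value at that age. Rises named below that needed the 10-week mice to pass include *Il1b*, *Cxcl2*, *Fosl1*, *Nr4a3*, *Arc*, *Ptgs2*, *Has1*, *Adamts4*, *Spink7*, *Fcer1a*, *Matn3* and *Cd4*. The falls *Krt84*, *Kcne1l*, *Dhrs7c*, *Agtr2*, *1110059M19Rik* and *Igf2bp3* needed the 2-week mice. Their direction, and their part in list counts and medians, were largely set by the filter.

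*Socs3* itself (mm9 chromosome 11, 117827393 to 117831361) was at 1.25, 9.32, 12.6 and 3.51 FPKM in the 4 mice at 2 weeks and at 36.5, 29.8, 47.7 and 32.4 at 10 weeks. Every 10-week mouse lay above every 2-week mouse, and the 2-week mice spanned a wide range among themselves, with replicate 1 the lowest. The log2(FC) was 2.88 (SE 0.63, adjusted p = 0.039 by limma, and 0.0139 to 0.121 with a mouse left out in turn), which does not pass the threshold used here for differentially expressed genes (DEGs: adjusted p below 0.01 and a log2(FC) of at least 1 in size). A 2-sided exact permutation test on the gene alone gave p = 0.0286, the smallest that 4 mice against 4 allow. This value follows from the absence of overlap and adds nothing to it. FPKM over the whole gene does not separate the deleted part from the rest, nor keratinocytes from other cells. In the wild type the values were 9.71, 10.2, 10.3 and 10.3 at 2 weeks and 2.76, 4.81 and 2.02 at 10 weeks.

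Between 2 and 10 weeks, 146 of the 13179 tested genes were DEGs (1.11%). Of these, 90 were up-regulated at 10 weeks (0.683% of the genes tested) and 56 were down-regulated (0.425%). Counts of DEGs in the gene lists below are to be read beside these shares. All 146 had every 10-week mouse on one side of every 2-week mouse, which held for 14.9% of all genes tested. Among the 20 largest rises and falls named below, the rises included cytokines, chemokines, AP-1 and NR4A transcription factors and enzymes of prostaglandin and hyaluronan synthesis, and the falls a hair keratin, an EGF family ligand and skeletal muscle genes. The median log2(FC) of all genes tested was 0.11, and -0.02 after quantile normalization. An unadjusted p below 0.05 was found for 2553 genes (19.4%), the DEGs included. The count depended on which mice entered it. It rose to 257 without replicate 1 at 2 weeks, and to 291 without that mouse and replicate 4 at 10 weeks, an alternative added after the data had been seen. It fell to 48 and 56 without replicates 3 and 4 at 2 weeks, and to 56, 51, 43 and 71 without replicates 1, 2, 3 and 4 at 10 weeks. It was 138 without replicate 2 at 2 weeks. Some list counts below are also given without replicate 1 at 2 weeks, the only mouse whose removal raised the total. Of the 61 DEGs picked by the rules for named genes, 24 kept the call with each of the 8 mice left out in turn. These were *Il6*, *Fosl1*, *Has1*, *Ptgs2*, *Nr4a3*, *Il1b*, *Spink7*, *Arc*, *Ccl2*, *Ccl7*, *Ccl20*, *Nfkbia*, *Tnfaip3*, *Bhlhe40*, *Gm129*, *Irf1*, *Errfi1* and *Cd14* among the rises, and *Krt84*, *Kcne1l*, *Btc*, *Myh8*, *Slc38a4* and *Apobec2* among the falls. Each of the others of the 61 lost the call without at least 1 of the 8 mice, with an adjusted p of at most 0.0415 where tested. *Il24*, *Il17a* and *Igf2bp3* were tested in only 5 of these 8 fits.

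**Figure D1:**
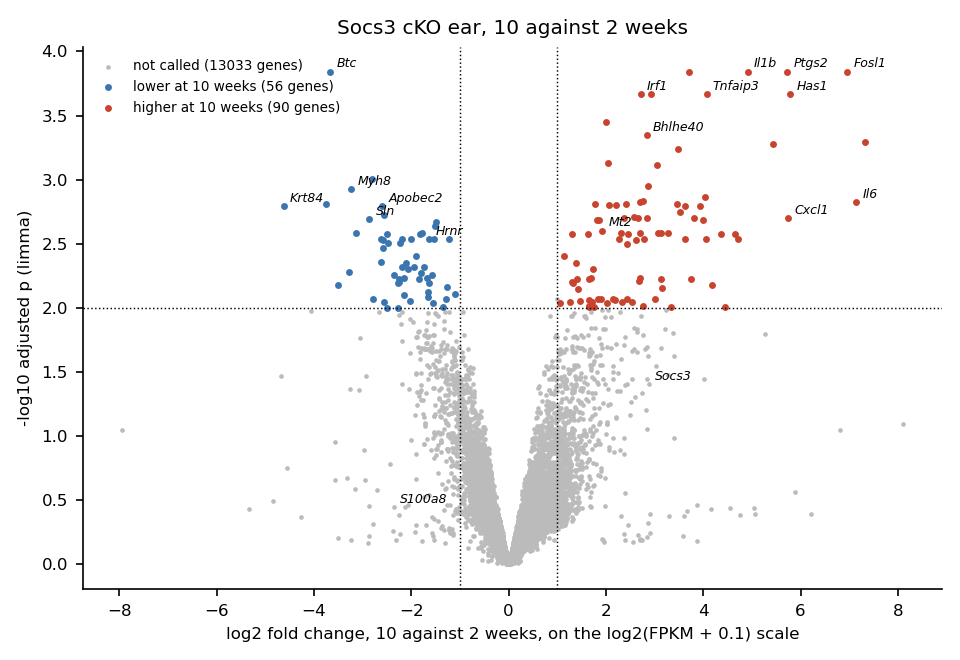
Each point is 1 of 13179 genes, with the log2 fold change from 2 to 10 weeks in *Socs3* cKO ear (x axis, log2(FPKM + 0.1) scale) against -log10 of limma's adjusted p (y axis), and dotted lines mark the thresholds. The 90 up-regulated genes include *Il6* at 7.14, with *Spink7* as the only one of them, listed at 0 in all 2-week mice, plotted farther to the right, and the 56 down-regulated genes reach -4.62 for *Krt84*.

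The cytokines that signal through gp130 were led by *Il6* and *Osm*, both up-regulated. Of the 7 IL-6 family cytokines 5 were expressed highly enough to be tested, and these 2 were the DEGs (list median 1.87). Both reached the filter through the 10-week mice, so their direction and their part in the median were largely set by it. *Il6* (mm9 chromosome 5, 30339701 to 30346508), the founding member of the family, was at 0.684, 0.0684, 1.35 and 0.123 FPKM at 2 weeks and at 43.7, 42.8, 82.2 and 109 at 10 weeks (log2(FC) of 7.14, SE 0.68, adjusted p = 0.0015). This was a change from at most 1.35 FPKM to at least 42.8 with no overlap. *Osm*, oncostatin M, made chiefly by leukocytes and acting on keratinocytes, went from 0.355, 0.142, 0.454 and 0.0958 to 2.81, 2.62, 3.58 and 3.54 (log2(FC) of 3.28, SE 0.37, adjusted p = 0.0026). *Lif* stayed too low to be tested, at 0.084, 0.522, 0.481 and 0.485 and then 1.28, 1.02, 0.922 and 0.783. On the receiving side none of 16 tested receptors, JAK kinases and STAT factors was a DEG (median 0.52). *Stat3* gave 10.4, 40.5, 27.4 and 34.9 FPKM at 2 weeks and 43.7, 50.1, 60.3 and 32.2 at 10 weeks (log2(FC) of 0.85, SE 0.41, adjusted p = 0.3), and the shared receptor chain *Il6st* gave a log2(FC) of 0.66 (SE 0.35, adjusted p = 0.34). Both genes overlapped between the ages.

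Downstream, the feedback inhibitor *Cish*, a STAT5 target of the same family as *Socs3*, rose from 1.61, 5.71, 4.198 and 4.61 to 22.7, 22.6, 31.6 and 21.9 FPKM (log2(FC) of 2.70, SE 0.36, adjusted p = 0.0058), as the only DEG of 8 SOCS family genes. *Socs1* was not called, with 0.528, 2.91, 6.56 and 4.39 FPKM at 2 weeks and 6.33, 6.87, 13.5 and 9.36 at 10 weeks. Of 14 tested STAT3 target genes, 1 passed, the monocyte attractant *Ccl2*, and 13 had a positive log2(FC), with a list median of 1.51. *Bcl3*, a nuclear partner of NF-kB, was at 0.247, 2.11, 2.01 and 2.1004 FPKM at 2 weeks and at 11.6, 11.6, 15.8 and 7.07 at 10 weeks (adjusted p = 0.028, and 0.0019 without replicate 1 at 2 weeks). *Pim1*, a survival kinase, was at 4.62, 33.6, 27.9 and 21.8 and then at 52.5, 64.3, 59.5 and 41.9 (adjusted p = 0.16). Both genes were separated between the ages without passing the threshold, and in both the lowest value was that of replicate 1 at 2 weeks. Without that mouse 3 of the 14 target genes were DEGs.

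Several chemokines that draw neutrophils, monocytes and T cells were up-regulated. *Cxcl1*, a neutrophil attractant, was at 3.84, 3.38, 6.03 and 0.652 FPKM in the 2-week mice and at 101, 109, 217 and 223 in the 10-week mice (log2(FC) of 5.75, SE 0.61, adjusted p = 0.002). *Cxcl2*, its close relative, went from 0.537, 1.03, 0.948 and 0.124 to 12.3, 11.6, 28.6 and 16.6 (log2(FC) of 4.66, SE 0.53, adjusted p = 0.0026). The interferon-inducible *Cxcl10*, which attracts T cells, went from 3.59, 1.41, 1.04 and 0.57 to 17.9, 13.98, 58.4 and 31.2 (log2(FC) of 4.18, SE 0.58, adjusted p = 0.0067). In all 3, replicate 4 had the lowest value at 2 weeks and replicates 3 and 4 the highest at 10 weeks. Of 15 CXC chemokines 10 were tested, and these 3 were DEGs, all up-regulated (0.683% of all genes tested were). All 10 had a positive log2(FC), with a median of 1.64. *Cxcl2* reached the filter through the 10-week mice, so its direction and its part in the median were largely set by it. Of 18 tested CC chemokines 3 were DEGs, all up-regulated (0.683% of all genes tested were), and the list median was 1.10. *Ccl2* and *Ccl7*, which attract monocytes, were both clear of overlap. *Ccl2* went from 11.1, 5.42, 11.5 and 5.96 to 63.2, 70.9, 109.7 and 131 FPKM (log2(FC) of 3.46, SE 0.33, adjusted p = 0.0015). *Ccl7* went from 22.1, 10.5, 21.5 and 11.5 to 119, 137, 219 and 293 (log2(FC) of 3.53, SE 0.36, adjusted p = 0.0018). *Ccl20*, the ligand of CCR6 on Langerhans cell precursors and IL-17-producing cells, was at 7.77, 6.29, 7.89 and 4.92 FPKM and then at 44.6, 104, 87.2 and 78.2 (log2(FC) of 3.49, SE 0.28, adjusted p = 0.00058).

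Within the IL-1 family only the myeloid cytokine passed. *Il1b*, released mainly by activated myeloid cells, rose from 0.298, 0.322, 0.689 and 0.387 to 12.1, 12.3, 21.3 and 16.6 FPKM (log2(FC) of 4.92, SE 0.30, adjusted p = 0.00014). It was the only DEG of 10 tested members. Several of the others are made by keratinocytes, and 8 of the 10 had a negative log2(FC) (list median -0.76). *Il1a*, stored in keratinocytes, gave 13.5, 7.92, 14.3 and 9.83 FPKM at 2 weeks and 3.64, 3.84, 5.799 and 4.96 at 10 weeks, groups that did not overlap, with an adjusted p of 0.028. Of the IL-20 group and other skin cytokines, 7 of 18 were expressed highly enough to be tested and 2 were DEGs, both up-regulated. These 2 passed the filter only through the 10-week mice, so the count says nothing on the direction of the group. *Il24*, a keratinocyte product of the IL-20 group, was listed at 0 in 3 of the 2-week mice and at 0.0653 FPKM in the fourth, and at 1.66, 0.98, 5.75 and 2.53 at 10 weeks (adjusted p = 0.0027). *Il17a*, the T cell cytokine central to psoriasis, went from 0.0694, 0, 0.0616 and 0 to 0.69, 2.66, 1.31 and 1.98 (adjusted p = 0.0029). *Tslp*, an epithelial cytokine of allergy, was not called, at 6.698, 3.63, 4.41 and 4.03 FPKM at 2 weeks and 6.44, 7.498, 6.41 and 5.86 at 10 weeks (adjusted p = 0.26).

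**Figure D2:**
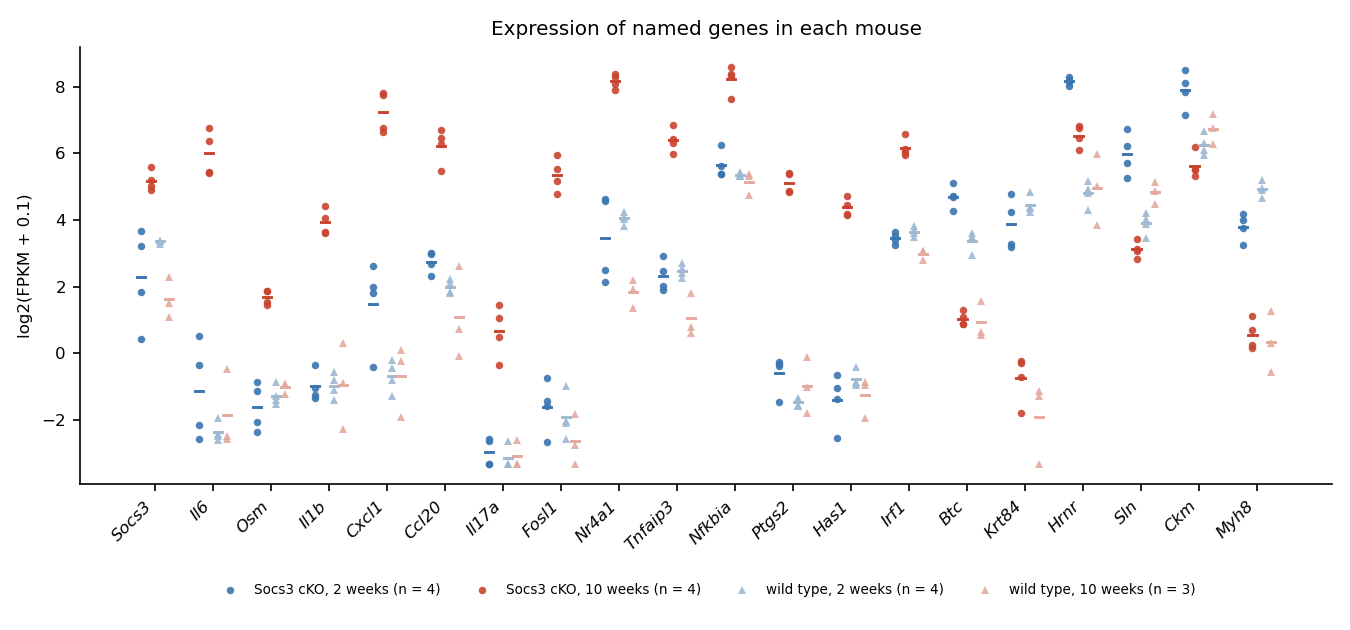
Each symbol is 1 mouse, with log2(FPKM + 0.1) on the y axis for 20 named genes, circles for *Socs3* cKO, triangles for the wild type and bars for group means. The inflammatory genes from *Il6* to *Irf1* are higher in each of the 4 *Socs3* cKO mice at 10 weeks than in any other mouse, and *Btc* and *Krt84* are low in the older mice of both genotypes.

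The AP-1 family, whose dimers of Fos and Jun proteins respond to growth factors, cytokines and stress, had a median log2(FC) of 1.90 over 12 tested genes, and all 12 estimates were positive. Of these, 1 was a DEG, up-regulated as were 0.683% of all genes tested, and 4 were DEGs without replicate 1 at 2 weeks. *Fosl1* (mm9 chromosome 19, 5447703 to 5455945), which encodes FRA1, went from 0.0575, 0.233, 0.272 and 0.499 to 35.8, 45.8, 61.7 and 27.3 FPKM (log2(FC) of 6.96, SE 0.42, adjusted p = 0.00014), with no overlap between the ages. The ages overlapped in the founding members of the family. *Fos* was at 39.7, 204, 228 and 8.38 FPKM at 2 weeks and at 189.7, 136, 197 and 113 at 10 weeks (adjusted p = 0.46). *Jun* was at 5.42, 57.6, 42.6 and 11.9 and then at 61.5, 42.6, 59.3 and 28.6 (adjusted p = 0.38). In both genes replicates 2 and 3 at 2 weeks reached the level of the 10-week mice, while replicates 1 and 4 lay below all of them. The mean level of the list, in log2(FPKM + 0.1), was 1.75, 3.73, 3.92 and 2.36 in the 2-week mice and 5.26, 5.10, 5.43 and 4.98 in the 10-week mice.

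Other immediate-early genes, which are transcribed within minutes of a stimulus without new protein synthesis, were higher at 10 weeks in every estimate. Of 26 tested, 5 were DEGs, all up-regulated (0.683% of all genes tested were), and 9 were without replicate 1 at 2 weeks. The list median was 2.04. The orphan nuclear receptors of the NR4A group were among them. *Nr4a1* went from 5.55, 23.6, 24.6 and 4.31 to 332, 272, 314 and 242 FPKM (log2(FC) of 4.71, SE 0.56, adjusted p = 0.0029). *Nr4a2* went from 0.933, 3.25, 1.56 and 1.08 to 36.03, 35.8, 34.1 and 11.4 (log2(FC) 4.05, adjusted p = 0.0029). *Nr4a3* went from 0.0399, 0.216, 0.106 and 0.227 to 12.5, 14.4, 12.1 and 4.66 (log2(FC) 5.44, adjusted p = 0.00053). In *Nr4a2* and *Nr4a3* replicate 4 was the lowest of the 10-week mice and still above all 2-week mice. *Nr4a1* lost the call without each of the 4 mice at 10 weeks in turn, and *Nr4a2* without 5 of the 8 mice. *Arc*, best known from synapses, went from 0.235, 0.72, 0.939 and 0.591 to 6.72, 8.497, 15.9 and 8.27 (log2(FC) of 3.82, SE 0.40, adjusted p = 0.002), and *Gadd45g*, a growth arrest gene named outside the rules as the last of the 5, rose with a log2(FC) of 2.19 (adjusted p = 0.0086). *Egr1*, a zinc finger factor, was not called, at 10.8, 109.9, 67.3 and 9.99 FPKM at 2 weeks and 201, 156, 201 and 91.4 at 10 weeks (adjusted p = 0.14). *Ier2* was at 6.62, 54.3, 73.7 and 19.1 and then at 117, 109, 126 and 97.7 (adjusted p = 0.13). None of 14 tested MAP kinase feedback genes was a DEG (median 1.07). The phosphatases *Dusp1* and *Dusp6* gave log2(FC) values of 2.02 and 0.89 (adjusted p = 0.078 and 0.026).

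NF-kB, held in the cytoplasm by inhibitors, is a transcription factor of inflammation that induces several of its own inhibitors. Of 14 tested subunits and feedback inhibitors 3 were DEGs, all up-regulated (0.683% of all genes tested were), and 5 were without replicate 1 at 2 weeks. All 14 estimates were positive and the median was 1.25. *Nfkbia*, which encodes IkB-alpha, went from 48.8, 75.5, 41.96 and 41.7 to 318, 331, 387 and 197 FPKM (log2(FC) of 2.57, SE 0.27, adjusted p = 0.002). *Tnfaip3*, encoding the ubiquitin-editing enzyme A20, went from 3.603, 7.55, 5.42 and 3.95 to 79.98, 85.98, 116 and 63.1 (log2(FC) of 4.07, SE 0.27, adjusted p = 0.00022). *Nfkbiz*, encoding IkB-zeta, a co-activator of IL-17 target genes in keratinocytes, went from 5.93, 13.8, 7.28 and 5.202 to 60.96, 65.1, 97.6 and 41.8 (log2(FC) of 3.07, SE 0.35, adjusted p = 0.0026). None of the DNA-binding subunits *Nfkb1*, *Nfkb2*, *Rel*, *Rela* and *Relb* was a DEG. In each of the 3 DEGs the 10-week mice were all above the 2-week mice, with replicate 3 the highest. *Nfkbiz* lost the call without 5 of the 8 mice in turn.

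The 250 bases before the start of each gene were searched in RefSeq promoters (GRCm38.p6) for the consensus NF-kB site on both strands. Of the 90 up-regulated DEGs 57 had a promoter in the table, and 13 of them (22.8%) held a match, against 5.74% of the 9280 tested genes with a promoter and 3 of 39 down-regulated DEGs (7.69%). Among the NF-kB subunits and inhibitors it was 7 of 11. The AP-1 site (TGAGTCA or TGACTCA) was in 15.8% of the up-regulated promoters and in 4.69% of those of all tested genes, and the CRE (TGACGTCA) in 3.51% and 2.91%. The TATA box (TATAAA) was in 28.2% of the down-regulated, 21.1% of the up-regulated and 8.92% of all tested promoters. These are matches of letters and no measurement of binding. Promoters of 2 chemokines, *Il6* and 2 inhibitors of NF-kB, all DEGs with a match, are shown over the 100 bases before the start, 5′ to 3′ on the strand of the gene, with the match in capitals.
Cxcl1 (GRCm38.p6 chr5:90891145-90891244, plus strand): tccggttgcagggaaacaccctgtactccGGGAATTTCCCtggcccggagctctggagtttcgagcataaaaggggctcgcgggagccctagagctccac
Cxcl2 (GRCm38.p6 chr5:90903799-90903898, plus strand): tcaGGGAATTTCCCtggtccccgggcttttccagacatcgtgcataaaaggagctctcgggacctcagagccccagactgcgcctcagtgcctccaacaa
Il6 (GRCm38.p6 chr5:30013014-30013113, plus strand): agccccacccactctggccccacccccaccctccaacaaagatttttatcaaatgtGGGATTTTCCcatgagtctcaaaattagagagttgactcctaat
Nfkbia (GRCm38.p6 chr12:55492648-55492747, minus strand): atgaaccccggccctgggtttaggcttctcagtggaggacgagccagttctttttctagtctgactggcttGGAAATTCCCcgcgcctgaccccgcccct
Tnfaip3 (GRCm38.p6 chr10:19015411-19015510, minus strand): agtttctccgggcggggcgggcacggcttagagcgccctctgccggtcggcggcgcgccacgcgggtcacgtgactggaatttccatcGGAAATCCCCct
The stretch in capitals is the same in *Cxcl1* and *Cxcl2*, where 2 matches on opposite strands overlap. It begins 71 bases before the start in *Cxcl1*, 97 in *Cxcl2*, 44 in *Il6*, 29 in *Nfkbia* and 12 in *Tnfaip3*.

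Further genes with the largest rises make prostaglandins and hyaluronan or act on proteases and matrix. *Ptgs2*, the inducible cyclooxygenase, went from 0.697, 0.674, 0.739 and 0.262 to 28.7, 29.3, 41.5 and 42.1 FPKM (log2(FC) of 5.73, SE 0.31, adjusted p = 0.00014). *Has1*, a hyaluronan synthase, went from 0.0711, 0.384, 0.536 and 0.288 to 17.6, 18.05, 26.4 and 21.9 (log2(FC) of 5.78, SE 0.39, adjusted p = 0.00022). *Adamts4*, an aggrecanase, was listed at 0 in replicate 1 at 2 weeks and was at 0.343 to 0.488 FPKM in the other 2-week mice and at 9.59, 8.44, 14.2 and 2.56 at 10 weeks (adjusted p = 0.0098). It was the only DEG of 29 tested matrix and fibroblast genes (median 0.46). *Eln*, elastin, gave 201, 1544, 2561 and 1027 FPKM at 2 weeks and 293, 123, 496 and 493 at 10 weeks (adjusted p = 0.29), and the crosslinking enzyme *Lox* a log2(FC) of -0.92 (adjusted p = 0.053). *Spink7*, a serine protease inhibitor, was listed at 0 in all 4 mice at 2 weeks and was at 5.63, 10.4, 43.8 and 24.4 FPKM at 10 weeks, so no fold is given (adjusted p = 0.00051). The wild type had 0, 0, 0.908 and 0 FPKM at 2 weeks and 90.1, 0 and 0 at 10 weeks. With limma on all 15 mice, its *Socs3* cKO change had an adjusted p of 0.012 and its genotype by age interaction one of 0.11. Among ligands and receptors of the EGF family 2 of 11 were up-regulated and 1 was down-regulated. *Hbegf*, a ligand released in wounds, went from 2.32, 7.35, 6.53 and 3.11 to 27.7, 28.9, 50.1 and 19.9 (log2(FC) of 2.76, SE 0.42, adjusted p = 0.0097), and *Errfi1*, an inhibitor of the receptor, from 14.1, 26.7, 23.9 and 21.9 to 149.9, 111, 94.9 and 102 (log2(FC) of 2.41, SE 0.24, adjusted p = 0.0016). The ligand *Areg* was not called (log2(FC) 1.93, adjusted p = 0.015). *Btc*, encoding betacellulin (mm9 chromosome 5, 91786287 to 91831939), moved the other way, from 34.5, 25.9, 26.4 and 19.1 to 2.01, 2.35, 1.75 and 1.76 FPKM (log2(FC) of -3.66, SE 0.22, adjusted p = 0.00014), and the 2 ages lay far apart.

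Single stress and clock genes rose as well. The metallothionein *Mt2*, which binds zinc and copper and is induced by metals and glucocorticoids, was at 472, 277, 408 and 406 FPKM and then at 1544, 1241, 1450.2 and 1638 (log2(FC) of 1.93, SE 0.21, adjusted p = 0.0025), and *Mt1* gave a log2(FC) of 1.63 with an adjusted p of 0.016. Of 14 tested oxidative stress and metallothionein genes *Mt2* was the only DEG, and 3 were without replicate 1 at 2 weeks. Of 18 clock genes 3 were up-regulated, and 5 without replicate 1 at 2 weeks (median 1.21). *Bhlhe40*, which is also induced by cytokines and hypoxia, rose from 11.6, 21.5, 16.5 and 13.3 to 117, 101, 129 and 95.9 (log2(FC) of 2.84, SE 0.22, adjusted p = 0.00045). *Nfil3* and *Gm129*, clock repressors, had log2(FC) values of 2.54 and 2.06 (adjusted p = 0.009 and 0.0016). The core activator *Arntl* was at 6.88, 12.1, 8.64 and 15.2 and 5.97, 7.32, 8.69 and 5.88 FPKM (adjusted p = 0.3), and the output gene *Dbp* at 12.4, 21.5, 28.9 and 12.1 and 54.5, 38.2, 42.9 and 61.5 (adjusted p = 0.035). The labels give no time of day. Of 17 tested interferon-stimulated genes 2 were DEGs, *Cxcl10* and *Irf1*. *Irf1*, a transcription factor that is also a target of NF-kB, was at 12.4, 10.4, 11.5 and 9.52 FPKM and then at 65.3, 61.9, 95.6 and 70.2 (log2(FC) of 2.72, SE 0.18, adjusted p = 0.00022).

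Markers of leukocytes were counted in the same libraries. All 14 macrophage markers had a positive log2(FC) (median 0.76) and 1 was a DEG, the endotoxin co-receptor *Cd14*, at 5.86, 5.09, 6.58 and 4.88 and then 22.3, 21.4, 25.99 and 37.96 FPKM (log2(FC) of 2.21, SE 0.22, adjusted p = 0.0016). Their summed FPKM was 324 to 434 at 2 weeks and 546 to 801 at 10 weeks. *Cd68* gave a log2(FC) of 0.98 (adjusted p = 0.016) and *Emr1*, the F4/80 antigen, of 0.41 (adjusted p = 0.37). All 11 tested Langerhans and dendritic cell and MHC class II genes also had a positive log2(FC) (median 0.78, summed FPKM 900.1 to 1010.3 and then 1752 to 2711) without a DEG. *Cd207*, langerin, gave 0.68 (adjusted p = 0.12) and *H2-Aa* gave 0.78 (adjusted p = 0.23). Among 9 tested T cell markers *Cd4*, which macrophages and dendritic cells can also express, was up-regulated, from 0.951, 1.67, 0.762 and 0.846 to 4.36, 3.52, 4.01 and 3.66 (log2(FC) of 1.84, SE 0.27, adjusted p = 0.0085). Of these 9 markers 7 had a positive log2(FC), *Cd4* included (median 0.60), and 2 did not overlap between the ages. The mean log2(FPKM + 0.1) of the 9 was 1.02 to 1.19 at 2 weeks and 1.63 to 1.84 at 10 weeks. The CD3 chains *Cd3e* and *Cd3d* did not separate the ages. *Cd3e* was at 2.01, 6.47, 2.32 and 3.66 FPKM at 2 weeks and at 8.17, 6.57, 6.51 and 4.75 at 10 weeks, and *Cd3d* at 6.61, 3.57, 4.34 and 3.62 and then at 3.55, 3.72, 3.097 and 8.12. Among 10 mast cell markers only *Fcer1a*, the IgE receptor chain shared with dendritic cells and basophils, was a DEG, from 0.163, 0.147, 0.29 and 0.265 to 3.098, 2.72, 6.46 and 9.86 (log2(FC) of 3.99, SE 0.43, adjusted p = 0.0021), while the granule proteases *Cpa3* and *Mcpt4* gave log2(FC) values of -0.94 and -0.37 (adjusted p = 0.21 and 0.4). *Icam1*, an adhesion molecule for leukocytes and the only DEG of 15 tested endothelial genes, went from 6.78, 16.4, 13.6 and 12.7 to 67.999, 68.3, 114 and 54.1 (log2(FC) of 2.63, SE 0.31, adjusted p = 0.003), whereas *Pecam1* and *Cdh5* gave -0.39 and 0.06 (adjusted p = 0.31 and 0.93). How far cell numbers account for the cytokine and chemokine levels was not tested.

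**Figure D3:**
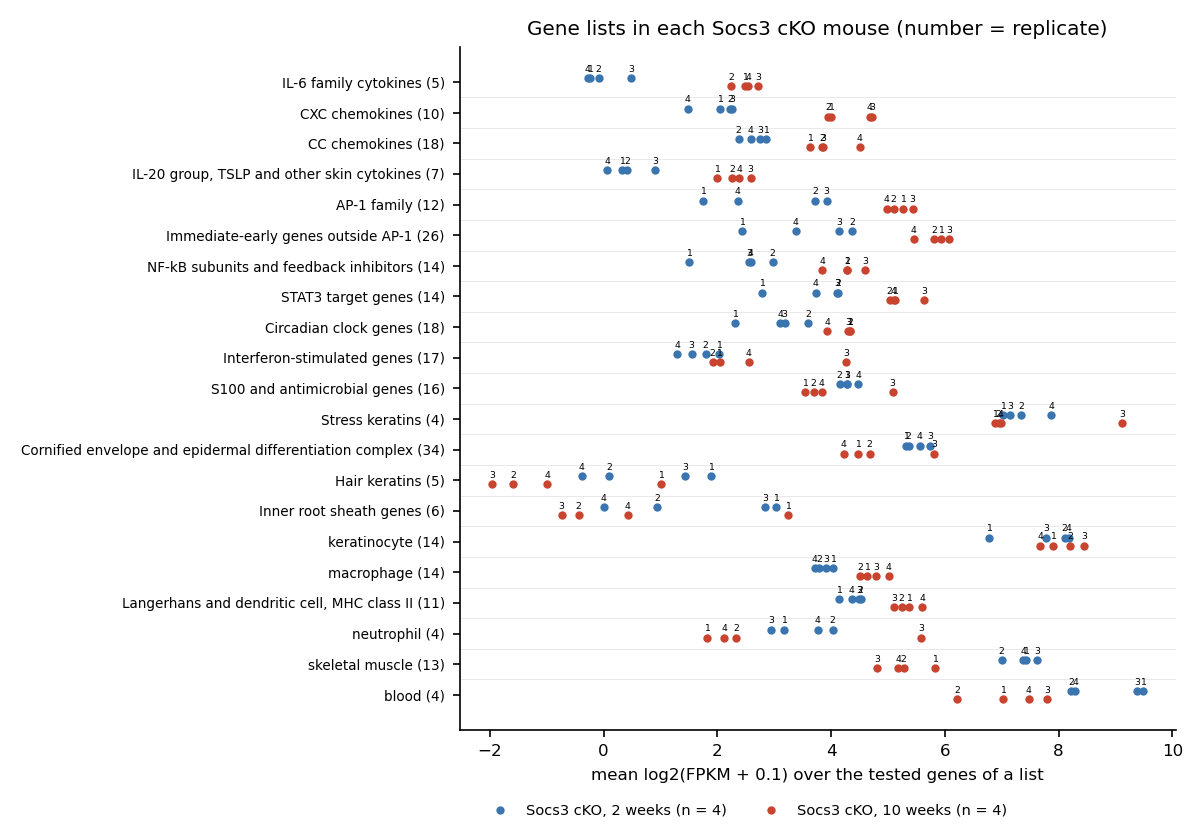
Each point is 1 *Socs3* cKO mouse, labelled with its replicate number, at the mean log2(FPKM + 0.1) over the tested genes of a list (number of genes in brackets, blue for 2 weeks and red for 10 weeks). The ages are separated in the cytokine, AP-1, NF-kB, macrophage, muscle and blood lists, and replicate 3 at 10 weeks has the highest value in the interferon, S100, stress keratin and neutrophil lists.

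Most cornified envelope genes had a negative estimate, and 2 passed as down-regulated. Of the 34 tested, 29 had a negative log2(FC) (median -0.99) and 2 were DEGs, both down-regulated (0.425% of all genes tested were). The ages did not overlap in 20 of the 34, which held for 14.9% of all genes tested. *Hrnr*, encoding hornerin, a filaggrin-like protein of the cornified layer (mm9 chromosome 3, 93123671 to 93137492), was at 262, 293, 313 and 282 FPKM at 2 weeks and at 87.2, 109, 114 and 68.1 at 10 weeks (log2(FC) of -1.63, SE 0.19, adjusted p = 0.0029). *Flg2*, encoding filaggrin 2, was at 155, 171, 162 and 163 and then at 62.4, 83.6, 68.1 and 64.8 (log2(FC) of -1.23, SE 0.15, adjusted p = 0.0029). In both genes the 4 mice of each age lay close together and the ages far apart. *Lor*, the main envelope protein, was at 130.3, 337, 603 and 447 and 147, 272, 224 and 146 (adjusted p = 0.37), and *Ivl* gave a log2(FC) of -0.99 (adjusted p = 0.053). Desquamation proteases and inhibitors had 13 of 14 negative estimates without a DEG (median -0.68), and *Klk5* and *Spink5* gave -0.72 and -0.97 (adjusted p = 0.054 and 0.026). No barrier lipid gene of 20 passed (median -0.22), with *Abca12* at -0.16 and *Elovl4* at -0.25 (adjusted p = 0.68 and 0.49). The keratins of the basal and spinous layers did not pass either, with a median of 0.06 over 10 genes, *Krt5* and *Krt14* at 0.48 and -0.02 (adjusted p = 0.49 and 0.97). *Krt10*, the keratin of the spinous layer, was at 432, 3753, 2937 and 3898 FPKM at 2 weeks and at 2303, 3850.5, 3454 and 1675 at 10 weeks, with replicate 1 at 2 weeks far below the rest.

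Hair follicle genes varied from mouse to mouse, and 1 hair keratin was down-regulated. Of 14 hair keratins 5 were tested and 1 was a DEG. *Krt84* (mm9 chromosome 15, 101355457 to 101363251), a type II hair keratin that is also found in tongue, went from 9.02, 27.4, 18.7 and 9.61 to 0.717, 0.756, 0.51 and 0.19 FPKM (log2(FC) of -4.62, SE 0.47, adjusted p = 0.0016), the largest fall of all DEGs. *Krt35* was at 1.99, 0.159, 1.47 and 0.107 FPKM at 2 weeks and at 3.58, 0.0368, 0.0397 and 1.28 at 10 weeks, with no separation of the ages (adjusted p = 0.92), and *Krt31* was too low to be tested. The inner root sheath keratin *Krt71* was at 18.2, 2.69, 13.9 and 1.16 FPKM at 2 weeks and at 22.7, 0.397, 0.306 and 1.65 at 10 weeks. *Krt25* was at 19.998, 3.298, 16.7 and 2.67 and then at 23.7, 1.63, 0.834 and 3.15. Replicates 1 and 3 were high at 2 weeks and replicate 1 at 10 weeks. No inner root sheath gene of 6 was a DEG (median -1.25). Nor was any of 13 hair matrix regulators (*Hoxc13* at -0.35, adjusted p = 0.54, and *Lef1* too low to be tested), 13 follicle stem cell genes (*Lgr5* and *Cd34* at -0.31 and 0.23, adjusted p = 0.64 and 0.5) or 12 melanocyte genes (*Tyr* and *Dct* at -0.48 and -0.97, adjusted p = 0.49 and 0.11). Of 15 tested genes of the imprinted and fetal growth network, many of which are shut off after birth, 13 had a negative estimate (median -0.65) and 1 passed, the RNA-binding protein *Igf2bp3*, from 1.25, 2.17, 1.83 and 0.919 to 0.161, 0.0944, 0.233 and 0.149 FPKM (log2(FC) of -2.62, SE 0.33, adjusted p = 0.0044). *H19* was at 50.02, 90.6, 129.8 and 72.6 and then at 5.61, 2.74, 15.4 and 33.2, with no overlap and an adjusted p of 0.044, and *Igf2* gave -0.65 (adjusted p = 0.4).

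Skeletal muscle genes fell together, and no other list held as many down-regulated DEGs. Of 13 tested muscle markers 8 were DEGs, all down-regulated (0.425% of all genes tested were). All 13 estimates were negative, with a median of -2.25 against 0.11 over all genes tested. The summed FPKM of the 14 markers was 2662 to 5276 at 2 weeks and 667 to 1193 at 10 weeks, and lay at 1091 to 1637 and 1604 to 2702 in the wild type at the same ages. *Ckm*, the muscle creatine kinase, went from 361, 142, 275 and 229 to 73.4, 45.3, 39.5 and 46.3 FPKM (log2(FC) of -2.26, SE 0.31, adjusted p = 0.0059). *Myh4*, the fast myosin of type IIb fibres, went from 59.02, 33.99, 38.04 and 58.3 to 13.2, 7.56, 5.03 and 6.66 (log2(FC) of -2.58, SE 0.32, adjusted p = 0.0034). *Actn3*, *Pvalb* and *Myl1*, all typical of fast fibres, had log2(FC) values of -2.55, -2.50 and -2.49 (adjusted p = 0.0089, 0.00997 and 0.0031). *Sln*, encoding sarcolipin, an inhibitor of the calcium pump of muscle, went from 107, 38.6, 74.3 and 52.3 to 10.7, 8.66, 7.07 and 8.37 (log2(FC) of -2.86, SE 0.31, adjusted p = 0.002). *Casq2*, a calcium store protein, went from 17.3, 8.19, 20.8 and 8.55 to 1.24, 1.21, 1.12 and 1.97 (log2(FC) of -3.13, SE 0.35, adjusted p = 0.0026). *Dhrs7c*, a muscle dehydrogenase, went from 7.95, 2.89, 5.76 and 5.73 to 0.857, 0.607, 0.197 and 0.367 (log2(FC) of -3.27, SE 0.43, adjusted p = 0.0053). In *Sln*, *Casq2* and *Dhrs7c* the 2-week mice differed among themselves by more than 2-fold and the 10-week mice were all lower. The neonatal myosin *Myh8* went from 15.8, 13.5, 17.98 and 9.39 to 2.08, 1.52, 1.01 and 1.095 (log2(FC) of -3.24, SE 0.29, adjusted p = 0.0012). *Acta1* was not called, at 117, 410.3, 518 and 359.6 and then 156, 90.6, 78.5 and 67.3 (adjusted p = 0.084, and 0.0043 without replicate 1 at 2 weeks). How the ears were cut is not given in the sources used here, and the part of muscle content in these values was not tested.

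The remaining large falls belong to no single list. *Kcne1l*, a potassium channel subunit, went from 16.4, 15.5, 23.97 and 12.5 to 1.71, 1.75, 0.583 and 0.906 FPKM (log2(FC) of -3.76, SE 0.36, adjusted p = 0.0015). *Slc38a4*, an amino acid transporter, went from 15.4, 9.17, 11.8 and 11.9 to 1.53, 1.39, 1.34 and 2.31 (log2(FC) of -2.81, SE 0.25, adjusted p = 0.00098), and *Agtr2*, the angiotensin type 2 receptor of fetal and neonatal tissue, from 18.6, 6.33, 10.9 and 7.14 to 0.91, 0.902, 1.79 and 2.07 (log2(FC) of -2.79, SE 0.41, adjusted p = 0.0085). *1110059M19Rik* went from 3.92, 1.13, 2.17 and 1.32 to 0, 0.247, 0.0666 and 0.0621 (adjusted p = 0.0067). The 6 blood markers, mostly haemoglobin genes, summed to 2704 to 7432 FPKM at 2 weeks and 673 to 2110.1 at 10 weeks. *Hbb-b1* and *Hba-a1* gave log2(FC) values of -1.71 and -1.76 (adjusted p = 0.08 and 0.067), so none of the 4 tested was a DEG. No DEG was found among 40 proliferation genes (median -0.03), with *Mki67* at 0.25 and *Top2a* at -0.25 (adjusted p = 0.64 and 0.66). Nor was one found among 20 collagens (median 0.14), with *Col1a1* at 0.34 and *Col3a1* at 0.14 (adjusted p = 0.56 and 0.79). The same held for 2 groups of housekeeping genes, the 56 ribosomal protein genes with a median of -0.45 (*Rpl3* -0.36, *Rps6* -0.52, adjusted p = 0.45 and 0.37) and the 59 oxidative phosphorylation genes with one of -0.38 (*Ndufa1* -0.25, *Cox4i1* -0.06, adjusted p = 0.64 and 0.82). Of 17 cartilage genes 1 was up-regulated, *Matn3*, from 0.442, 0.478, 0.419 and 0.574 to 6.32, 2.58, 14.1 and 14.3 FPKM (log2(FC) of 3.74, SE 0.51, adjusted p = 0.006), and *Col2a1* and *Acan* gave -0.10 and 0.81 (adjusted p = 0.94 and 0.51).

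The 4 mice varied more at 2 weeks than at 10 weeks. The SD of log2(FPKM + 0.1) between the 4 mice had a median over the 13179 genes of 0.47 at 2 weeks and 0.26 at 10 weeks, and was larger at 2 weeks in 80.0% of genes. In the wild type the median was 0.10 at 2 weeks and 0.33 at 10 weeks. An SD over 1 was found in 1748 genes (13.3%) at 2 weeks and in 208 genes (1.58%) at 10 weeks. Replicate 1 set most of these values. Without it the median SD at 2 weeks was 0.26 and 151 genes had an SD over 1. Of the 1748 genes, replicate 1 was the mouse farthest from the median in 1608 (92.0%), and it lay below the mean of the other 3 mice in 1668 (95.4%). At 10 weeks the median SD fell to 0.15 without replicate 4. The DEG counts without either mouse are given above with the total.

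The genes that varied most at 2 weeks, among those with a mean of at least 5 FPKM, showed several patterns. The sex-linked *Eif2s3y*, *Ddx3y* and *Xist* separated male from female mice at both ages. *Pcdhgc3*, *Pigt* and *Phospho1* were at 0.588, 0.77 and 0.752 FPKM in replicate 1 and at 13.7 to 20.3 FPKM in the other 2-week mice, and did not vary in this way at 10 weeks (17.5, 18.97, 23.1 and 16.3 for *Pigt*). *LOC100302567* was listed at 0 in replicate 4 and *Snhg9*, an RNA host gene, in replicate 1, and both were well above 0 in the other 3. In the remaining genes more than 1 mouse set the spread. *Fos* and *Fosb* were high in replicates 2 and 3 and low in replicates 1 and 4, with *Fosb* at 3.14, 37.3, 24.6 and 1.22 FPKM. The hair genes *Krtap8-1* and *Gm10229* were high in replicates 1 and 3, with *Krtap8-1* at 40.3, 2.26, 19.7 and 0.58 FPKM. The order of mice was thus not the same for the immediate-early and the hair genes. At 10 weeks the most variable genes outside the sex-linked ones and *Snhg9* were *Cyp2g1*, at 0.515, 0.474, 22.3 and 111 FPKM after 231, 160.2, 204 and 34.9 at 2 weeks, and *Gm5416*, at 0, 0, 33.2 and 0.596.

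**Figure D4:**
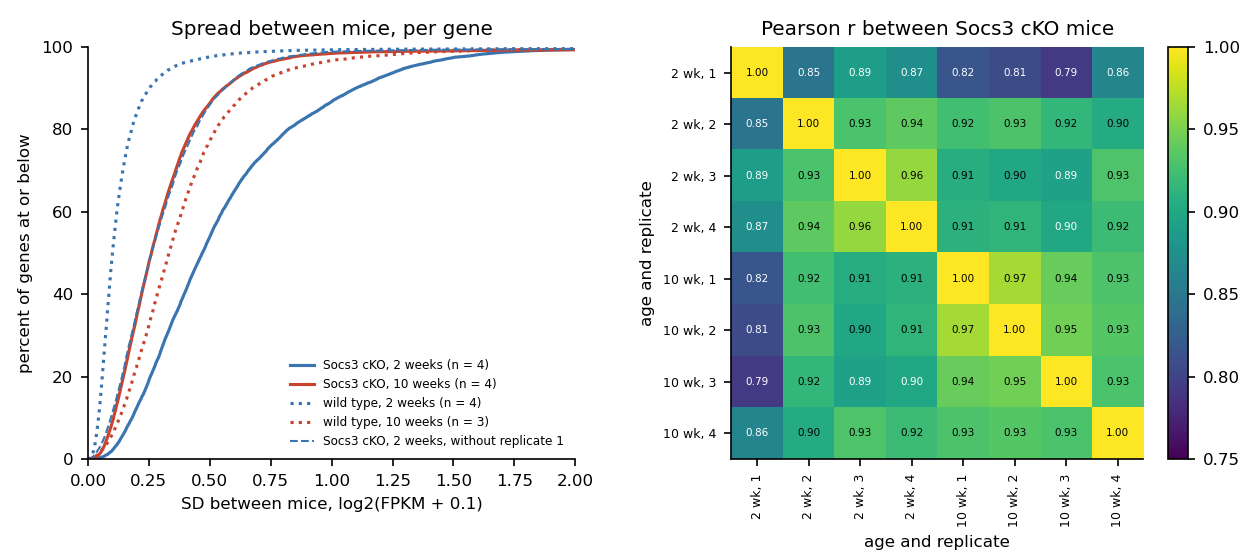
On the left, the percent of 13179 genes (y axis) whose SD between mice is at or below the value on the x axis, for each group and for *Socs3* cKO at 2 weeks without replicate 1, and on the right Pearson's r between the 8 *Socs3* cKO mice across genes. The 2-week curve without replicate 1 lies close to the 10-week curve, and replicate 1 at 2 weeks has the lowest correlations, from 0.79 to 0.89.

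At 10 weeks 1 mouse stood apart in inflammatory epidermal genes. *S100a8* and *S100a9* encode the subunits of calprotectin, made by neutrophils and by stressed keratinocytes. *S100a8* was at 164, 216, 118 and 234 FPKM at 2 weeks and at 7.42, 13.4, 838 and 16.5 at 10 weeks. *S100a9* was at 88.9, 139, 87.5 and 192 and then at 5.13, 13.8, 425 and 18.6. Replicate 3 was thus above all 2-week mice and the other 3 were below all of them, and neither gene was called (adjusted p = 0.36 and 0.36). Without replicate 3 at 10 weeks *S100a8* was down-regulated, with a log2(FC) of -3.90 (adjusted p = 0.0028), and *S100a9* gave -3.44 (adjusted p = 0.015). The stress keratin *Krt6a* was at 90.1, 151, 106 and 181 FPKM at 2 weeks and at 112, 125, 576 and 111 at 10 weeks. Its partner *Krt16* was at 342, 245, 244 and 405 and then at 283, 293, 1134 and 306. None of 4 stress keratins and none of 16 S100 and antimicrobial genes was a DEG. Interferon-stimulated genes were high in the same mouse. *Isg15*, a ubiquitin-like protein, was at 8.63, 6.13, 9.71 and 6.799 FPKM at 2 weeks and at 4.72, 3.95, 51.2 and 6.22 at 10 weeks. *Irf7*, a transcription factor of the interferon response, was at 1.65, 4.198, 3.44 and 3.65 and then at 2.83, 3.02, 23.6 and 2.84. The envelope gene *Sprr2d*, picked after its values were seen, was also highest in replicate 3, at 2.03, 4.92, 61.3 and 0.944 FPKM at 10 weeks. Of 12 neutrophil markers 4 were expressed highly enough to be tested and none was a DEG. *S100a8* and *S100a9* were the 2 with a negative log2(FC), and the other 2 had a positive one, up to 1.78. The granule genes *Elane*, *Ngp*, *Camp* and *Ltf* were at or below 0.964 FPKM in all 8 mice.

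Finally, the change with age was set beside that of the wild type, which shares no sample with it, in a fit of all 15 mice with a genotype by age interaction. Over the 13179 genes the 2 changes had a Spearman correlation of -0.23 and a Pearson correlation of -0.04 across genes, which are not independent replicates. The wild type libraries differed from the mutant ones in ways that bear on this comparison. At 10 weeks they had 2087, 3176 and 1414 genes at 0, against 4044 to 4423 in the other 12 libraries, and at 2 weeks their Spearman correlation of expression with GC content was 0.19 to 0.21. By *Xist* and Y-linked genes, wild type replicate 1 at 2 weeks was male and replicates 2, 3 and 4 were female. At 10 weeks all 3 were called female, though replicate 3 had *Eif2s3y* at 1.85 FPKM beside *Xist* at 12.2. Sex was thus not balanced between the wild type ages, and it was not a covariate in the interaction fit. The part of these differences and of library order in the interaction was not tested. The interaction had an adjusted p below 0.01 in 3566 of 13937 genes (25.6%), and in 108 of the 146 DEGs. Of these, the change was more positive in *Socs3* cKO in 72 of the 90 up-regulated DEGs and more negative in 33 of the 56 down-regulated DEGs, while 2 up-regulated and 1 down-regulated DEGs had the opposite sign. With median-of-ratios scaling these counts were 66 and 40, and with quantile normalization 54 and 41. The DEGs were picked by a large *Socs3* cKO change in the same mice, which is also a part of the interaction. The share of DEGs with an interaction and the agreement in sign were thus largely set by that choice. The 8 DEGs with the largest positive estimates were *Nr4a3*, *Fosl1*, *Adamts4*, *Nr4a1*, *Il6*, *Arc*, *Has1* and *Nr4a2*, from 6.25 upwards on the log2 scale. Their order depends on the pseudocount where values are near 0: *Nr4a3* was at 0.657, 0.464, 0.349 and 0.298 FPKM in the wild type at 2 weeks and was listed at 0 in all 3 mice at 10 weeks, and its estimate ran from 3.81 to 11.7 over the alternatives. *Nr4a1*, with values well above 0, fell in the wild type from 18.99, 16.8, 14.1 and 16.4 to 4.54, 3.74 and 2.49 FPKM while it rose in *Socs3* cKO (interaction 6.92, SE 0.68, adjusted p = 1.4e-05, 6.26 to 7.67 over the alternatives). In *Il6* the wild type was at 0.0781, 0.0884, 0.0665 and 0.162 and 0.618, 0.0801 and 0.0696 FPKM at the same ages, low in every mouse (interaction 6.62, adjusted p = 0.0002).

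The largest negative differences were in *Csrp3*, *Sln*, *Fam3b*, *Smpx*, *Apobec2*, *Mylpf*, *Myh1* and *Tnnt3*, from -4.17 to -3.06, all but *Fam3b*, a secreted epithelial protein, expressed in muscle. *Sln* was at 16.4, 14.6, 18.6 and 10.9 FPKM in the wild type at 2 weeks and at 22.3, 29.1 and 35.6 at 10 weeks (interaction -3.80, SE 0.41, adjusted p = 3e-05). *Apobec2*, a muscle protein of the cytidine deaminase family and a DEG in each of the 21 alternative fits, went from 52.9, 28.2, 51.9 and 46.3 to 10.002, 5.82, 7.29 and 5.91 in *Socs3* cKO and was at 11.1, 12.8, 12.9 and 9.58 and 13.1, 20.01 and 21.7 in the wild type. Other falls were shared. *Krt84* fell in the wild type too, from 20.4, 20.9, 18.9 and 28.4 to 0.359, 0 and 0.311 FPKM, as did *Btc*, from 11.1, 11.3, 7.61 and 12.1 to 1.36, 2.89 and 1.47, and *Myh8*, from 36.9, 30.001, 31.1 and 25.3 to 0.576, 2.29 and 1.13, and none of these 3 had an interaction adjusted p below 0.01 (0.061, 0.016 and 0.035). *Fcer1a* rose in both, with 0.0839, 0.0949, 0.0714 and 0.174 and then 5.98, 1.98 and 1.94 FPKM in the wild type (interaction 0.12, adjusted p = 0.88). The direction of the interactions taken over all genes depended on scaling. As deposited, 72.4% of the 3566 were positive and the median over all genes was 0.55, against 51.7% and 0.09 with median-of-ratios scaling and 43.6% and -0.09 with quantile normalization. The share was 82.2% (median 0.56) with a length and GC trend removed, and 59.9% (median 0.13) with no expression filter. The 16 genes with the largest interactions kept their sign and an adjusted p below 0.01 in all 25 alternatives. They had been picked by these values in the same mice, so this adds no separate support.

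**Figure D5:**
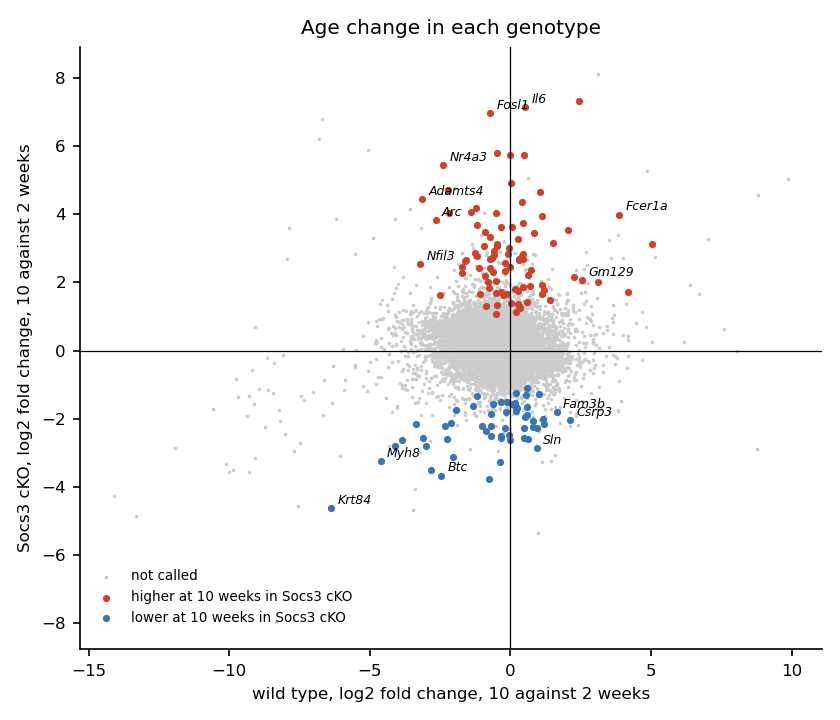
Each point is a gene, with the log2 fold change from 2 to 10 weeks in the wild type (x axis) and in *Socs3* cKO (y axis), and DEGs of *Socs3* cKO are coloured. Up-regulated DEGs such as *Il6*, *Fosl1* and *Nr4a3* lie near or below 0 in the wild type, while *Krt84*, *Btc* and *Myh8* lie below 0 in both genotypes.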

How the data were processed

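Total RNA of ear specimens was sequenced by the authors, who aligned the reads to mm9 with TopHat2 (2.1.0, with Cufflinks also named in the submitters' processing notes) and deposited one FPKM value per gene and sample. They used edgeR on counts, which were not used here. Per the labels, samples were grouped by genotype and age. Genes reaching 1 FPKM in 3 or more *Socs3* cKO samples out of 8 were tested on log2(FPKM + 0.1) with limma 3.58.1 (R 4.3.3, trended prior, 2-sided, Benjamini-Hochberg adjustment over 13179 genes). The interaction was fitted on all 15 samples, with the same rule in any 3 of the 15. Absolute depth is not given in the sources used here, so no counting intervals can be given. Genes were named by fixed rules: the 10 largest rises and falls among DEGs with no overlap, the first 2 members and up to 4 DEGs of each list described, the 12 and 6 most variable genes at 2 and 10 weeks with a mean FPKM of at least 5, and the 8 largest interactions in each direction among DEGs. Symbols that start with Snor, Mir, Scarna or Rnu were left out. *Gadd45g*, *Sprr2d*, 5 NF-kB subunits and 4 neutrophil granule genes were named outside these rules, after their values were seen. Members, gene lists and tests were chosen with earlier results of these data known. The labels do not say whether replicate numbers pair the samples, and the main fit did not pair them. Sex as a covariate and leaving out 2 mice were added after the data were seen. Coordinates are mm9, and promoter sequences are from RefSeq (GRCm38.p6).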

Additional observations from a re-analysis of the deposited data

Results flagged for a closer look

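In 144 groups of 4 mice, made of 51 lists and 21 genes at 2 ages, the highest or lowest mouse lay apart from the other 3 by Dixon's criterion in 15. Chance alone gives about 1 in 20 such groups. Values of lists are means of log2(FPKM + 0.1).

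Replicate 3 at 10 weeks was the highest in the STAT3 target genes (5.63, others 5.03 to 5.12), the stress keratins (9.11, others 6.89 to 6.98) and the neutrophil markers (5.59, others 1.82 to 2.33). Replicate 4 at 10 weeks was the lowest in the MAP kinase feedback genes (2.87, others 3.37 to 3.43) and the clock genes (3.93, others 4.30 to 4.33), and the highest in oxidative phosphorylation genes (7.43, others 6.91 to 6.99). It was also the lowest in *Nr4a3* (4.66 FPKM, others 12.1 to 14.4) and the highest in *Casq2* (1.97 FPKM, others 1.12 to 1.24). Replicate 2 at 10 weeks was the lowest in cartilage genes (3.98, others 4.88 to 5.04).

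At 2 weeks replicate 1 was the lowest in the hair matrix regulators (1.70, others 2.78 to 2.94), the follicle stem cell genes (1.99, others 3.11 to 3.27) and the smooth muscle and pericyte markers (3.78, others 4.27 to 4.35). Replicate 2 was the lowest in oxidative phosphorylation genes (6.94, others 7.50 to 7.62). Replicate 4 was the highest in proliferation genes (3.24, others 2.43 to 2.57) and the lowest in *Ptgs2* (0.262 FPKM, others 0.674 to 0.739).

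The change from 2 to 10 weeks differed between the genotypes by the interaction test (adjusted p below 0.01) in 108 DEGs. Listed here are the 16 with the largest estimates, 8 in each direction. The differences on the log2 scale were 7.84 for *Nr4a3* (a value set in part by the pseudocount, since the wild type was listed at 0 at 10 weeks), 7.67 for *Fosl1*, 7.58 for *Adamts4*, 6.92 for *Nr4a1*, 6.62 for *Il6*, 6.48 for *Arc*, 6.25 for *Has1* and 6.25 for *Nr4a2*. They were -4.17 for *Csrp3*, -3.80 for *Sln*, -3.46 for *Fam3b*, -3.36 for *Smpx*, -3.24 for *Apobec2*, -3.23 for *Mylpf*, -3.16 for *Myh1* and -3.06 for *Tnnt3*.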

How the results depend on the processing

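The 146 DEGs (61.6% up-regulated) became 1036 with array weights, 311 with a length and GC trend removed, 493 with all 4 groups in one fit, 470 at an adjusted p below 0.05, 86 with sex as a covariate and 291 without both mice that stood apart, the last 2 chosen after seeing the data. Leaving out 1 mouse gave 43 to 257 DEGs, 57.97% to 83.3% of them up-regulated. Other pseudocounts, filters and scalings gave 125 to 199. The interaction, 3566 genes, became 8531 with array weights and 1994 to 5117 with a mouse left out. The 3559 wild type DEGs, of which 24.2% were up-regulated (47.6% under median-of-ratios scaling, 52.2% under quantile normalization), became 2205 to 4519 with a mouse left out and 3083 to 5082 under the other settings. The median SD was 0.26 to 0.53 at 2 weeks and 0.15 to 0.28 at 10 weeks with a mouse left out. The causes were not tested.

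With a replicate block 15 genes were DEGs, 80.0% of them up-regulated, and 48 of the 61 named calls were lost. The deviations of same-numbered mice of the 2 ages had a mean correlation of 0.02 (from -0.13 to 0.28). For mice with different numbers it was -0.003 (from -0.50 to 0.35). So few mice cannot show whether the numbers pair them, and the labels do not say.

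Over 21 alternatives the estimate of 30 named genes crossed 0, none of them a DEG here, and no called gene did. Of 3245 gene values 2900 kept their side of the threshold, 292 lost a call and 53 gained one, and 1038 of 1070 list medians moved by less than the spread. The 12 genes called throughout were *Il6*, *Fosl1*, *Has1*, *Ptgs2*, *Il1b*, *Krt84*, *Btc*, *Arc*, *Apobec2*, *Tnfaip3*, *Bhlhe40* and *Irf1*. Absolute depth is unknown, which limits genes near 0.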
